A study of Mus musculus with 34 samples.

Results

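The genes described here are 10 enzymes and chromatin regulators that set DNA methylation or recur as mutated genes in clonal hematopoiesis: the DNA methyltransferases Dnmt1, Dnmt3a and Dnmt3b, the methylcytosine dioxygenases Tet1, Tet2 and Tet3, the chromatin regulators Asxl1 and Ezh2, and the isocitrate dehydrogenases Idh1 and Idh2. They were taken by name, as a list drawn up with earlier results of these data known. They make up 10 of the 13108 gene rows of the count table, all 10 were present, and all 10 passed the filter on low counts in every comparison. HSCs (LSK CD48-CD150+) of C57BL/6 mice were sorted in samples of 100 cells, and polyA RNA was sequenced with SMART-Seq2, which copies and amplifies whole transcripts of small cell numbers. Young mice, 8 to 12 wk old by the study's methods, comprised 4 Ythdf2 CTL mice (Ythdf2 fl/fl) and 4 Ythdf2 CKO mice (Ythdf2 fl/fl;Vav-iCre). Aged mice, 1 yr old, comprised 4 Ythdf2 CTL and 5 Ythdf2 CKO mice of the same genotypes. All groups carry the floxed allele, in which GFP is fused to YTHDF2, and Vav-iCre acts throughout the hematopoietic system, so the deletion is not limited to HSCs. Each mouse gave 2 libraries whose counts were summed, so the mouse was the replicate, except that only 1 library of aged CTL 99 was used.

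YTHDF2 binds m6A, a methyl mark on adenosines of mRNA, and promotes the decay of marked transcripts. DNA methylation is written at CpG dinucleotides, de novo by DNMT3A and DNMT3B and behind the replication fork by DNMT1, and TET enzymes oxidize it in reactions that consume alpha-ketoglutarate, the product of IDH1 and IDH2. In people, HSC clones with mutations of DNMT3A, TET2 or ASXL1 expand with age, which is called clonal hematopoiesis, and in mice loss of Dnmt3a or Tet2 increases HSC self-renewal.

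The DNA methyltransferases act on CpG, and the sequence just before a transcript start differs widely in CpG number between the members. The stretches below are shown for Dnmt3a and Tet2, the pair most often mutated in clonal hematopoiesis, and for Tet1 and Ezh2, the members with the smallest p in the aged and in the young comparison. They are RefSeq sequences of GRCm38, 5′ to 3′ on the gene's strand, contain no annotated exon, and have every CG in capitals. Each lies before a start used here but inside the annotated gene. The annotated genes begin farther upstream, at chr12:3801559 (Dnmt3a), chr3:133545136 (Tet2), chr10:62887469 (Tet1) and chr6:47595270 (Ezh2).
Dnmt3a, chr12:3806780-3806979, + strand: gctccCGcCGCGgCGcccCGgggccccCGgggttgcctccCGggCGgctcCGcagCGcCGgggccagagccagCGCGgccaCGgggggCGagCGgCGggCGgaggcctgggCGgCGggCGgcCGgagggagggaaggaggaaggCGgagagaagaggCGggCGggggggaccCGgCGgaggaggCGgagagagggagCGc
Tet2, chr3:133544391-133544590, − strand: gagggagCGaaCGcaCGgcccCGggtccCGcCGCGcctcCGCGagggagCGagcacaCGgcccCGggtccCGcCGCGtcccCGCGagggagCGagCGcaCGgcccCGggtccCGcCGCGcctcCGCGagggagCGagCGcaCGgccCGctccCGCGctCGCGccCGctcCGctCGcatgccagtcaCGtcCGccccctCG
Tet1, chr10:62887325-62887412, − strand: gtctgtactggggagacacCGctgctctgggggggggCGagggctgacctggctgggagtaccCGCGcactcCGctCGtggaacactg
Ezh2, chr6:47595059-47595183, − strand: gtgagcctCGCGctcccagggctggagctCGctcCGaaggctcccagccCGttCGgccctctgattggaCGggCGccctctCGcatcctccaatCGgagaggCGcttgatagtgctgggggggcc
CG reads the same on both strands. The 200 bases before the Tet2 start used here hold 40 CG. Of the 13063 windows of that length before starts of genes in the count table, 0.306% hold as many. Of the 3 Dnmt3a starts with such a window, the most upstream has 29 CG in the 200 bases before it, and the others have 35 and 13. As many are held by 5.82%, 1.67% and 51.1% of windows, whose median is 13. The 88 bases of Tet1 hold 6 CG and the 125 bases of Ezh2 hold 11, and 59.2% and 34.9% of equally placed stretches hold as many. Methylation of these bases was not measured here.

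The labels were checked with the targeted gene first. Ythdf2 was at 118, 123, 93.3 and 97.2 CPM in young CTL mice 1 to 4 and at 55.5, 57.6, 60.2 and 50.3 CPM in young CKO mice 1 to 4, where CPM are TMM-normalized counts scaled to equal library size. Its gene-level counts include exons outside the floxed one. In aged CTL mice it was at 179 CPM (mouse 65), 164 CPM (mouse 99), 142 CPM (mouse 114) and 70.5 CPM (mouse 124), and in aged CKO mice at 75.7 CPM (mouse 78), 87.7 CPM (mouse 81), 73.7 CPM (mouse 94), 188 CPM (mouse 121) and 72.4 CPM (mouse 122). The mouse labelled aged CTL 124 thus had the lowest Ythdf2 of all 9 aged mice and the mouse labelled aged CKO 121 the highest, against their labels. Genotype fold changes in aged mice, and the main age differences, are therefore given with and without both, while levels and the counts of list genes with age are from all mice. All 4 Y-linked genes examined had reads in 3 young CTL mice, 1 young CKO mouse, aged CTL 99 and aged CKO 78, and aged CTL 114 had 0.186 CPM from 1 of them. Totals per mouse were between 2218618 and 10125624 counts, so that 3 counts, the floor used here, equal 0.296 to 1.35 CPM, which covers counting error only. All 10 HSC markers examined, among them Kit, Slamf1 and Procr, were above 5 CPM in every mouse, and the 4 lymphoid markers in the table summed to at most 1.89 CPM in every mouse but aged CTL 114, with Ms4a1 at 0 in all. The 6 myeloid markers in the table summed to 555 to 1239 CPM, mostly from Lyz2 and Prtn3. Aged CTL 114 stood apart in both lists, with Dntt at 25.7 CPM and Mpo at 80.8 CPM, against 0 and at most 9.07 CPM in the other aged CTL mice, Itgam at 20.5 CPM and Ctsg at 7.63 CPM. Cd48, whose product the sort excludes, was at 53.8 to 87.0 CPM in young CTL and 97.9 to 105.6 CPM in young CKO mice, and at 0.6 to 28.2 CPM in aged mice. The HSC markers summed to 1679 to 2108 CPM in young CTL and 2190 to 2697 CPM in young CKO mice, so both separated the young genotypes. The gap in the HSC sum came with Ly6a, which encodes the sort marker Sca-1, at 254 to 339.9 CPM in young CTL and 417 to 906 CPM in young CKO mice. The other 9 HSC markers summed to 1409 to 1851 CPM in young CTL and 1569 to 2070 CPM in young CKO mice, which overlapped. In aged mice the HSC sums overlapped. Aged CTL 124 had the lowest, 1521 CPM, against 2519 to 3020 CPM in the other aged CTL and 2077 to 2743 CPM in aged CKO mice. It also had the lowest myeloid sum, 555 CPM, and the highest Cd48 of the aged mice, 28.2 CPM. The part of these markers in its member levels was not tested.

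Per kilobase of exons, the metabolic genes stood highest and the TET genes lowest. In young CTL HSCs, Idh2 had 179.5 ± 17.2 CPM per kb (SD, n = 4 mice here and for each level below) and exceeded 96.6% of all genes in the table. Idh1 followed at 35.7 ± 3.09, Ezh2 at 24.4 ± 1.14, Dnmt1 at 17.2 ± 2.33 and Dnmt3b at 10.9 ± 1.15 CPM per kb. These 5 kept that order in all 4 mice without overlap between neighbours, and Dnmt3b did not overlap Asxl1, at 4.43 ± 1.22. From Asxl1 downwards neighbours overlapped. Dnmt3a was at 3.05 ± 0.892 and Tet1 at 2.40 ± 0.684 CPM per kb, with Dnmt3a the higher in 3 of 4 mice. Tet3, at 1.53 ± 0.561, and Tet2, at 1.501 ± 0.297 CPM per kb, were each the higher in 2 of 4 mice, and about 20.5% and 20.3% of genes lay below them. On this length Idh2 was first and Idh1 second in the other 3 groups too. In aged CTL and aged CKO HSCs, the mean of Dnmt1 lay above that of Ezh2, with overlap. On the length of the longest transcript in place of the exon union, Ezh2 (58.4 CPM per kb) lay above Idh1 (42.9) in young CTL HSCs. Dnmt3a (5.24) then lay above Asxl1 (4.72), and Tet2 (2.76) above Tet1 (2.58) and Tet3 (2.34). Ezh2 also lay above Idh1 in aged CTL (46.3 and 34.2) and aged CKO HSCs (39.8 and 38.7), but not in young CKO HSCs (39.0 and 46.4).

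**Figure D1:**
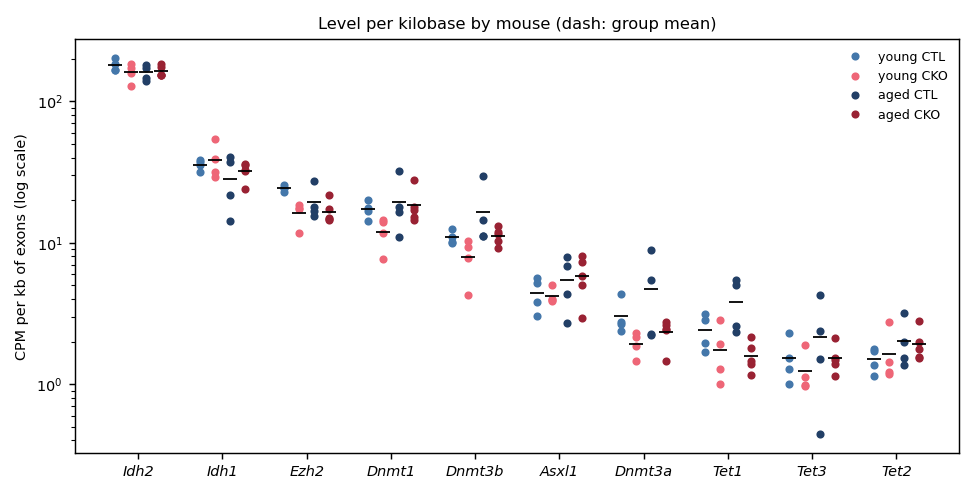
Level of each gene per kilobase of exons, on a log scale, in the 4 groups of mice; each point is 1 mouse and each dash a group mean. Idh2 lies above every other member in every mouse, and Tet1, Tet2, Tet3 and Dnmt3a share the lowest range.

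The first comparison asks whether loss of Ythdf2 goes with other levels of these genes in young HSCs. No member passed an adjusted p of 0.05. The lowest estimates, relative to CTL, were 63.6% for Dnmt3a, 67.0% for Ezh2, 69.8% for Dnmt1, 72.8% for Dnmt3b and 73.5% for Tet1, and the intervals of the last pair included 100%. By edgeR's quasi-likelihood test 0 of 10 members were called, against 0.174% of the 11526 genes tested, and DESeq2 and the likelihood ratio test over libraries also called 0, against 0.668% and 0.85% of genes. At an unadjusted p below 0.05, 3 members were lower (Dnmt1, Dnmt3a and Ezh2) and 0 higher, against 2.8% of all genes lower. The log2 fold change was negative in 8 of 10 members, against 50.1% of all genes, with a median of −0.37 against −0.00093 over all genes. In bulk RNA, fewer cells of a type and less RNA per cell cannot be told apart.

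Dnmt1, which copies methylation onto newly replicated DNA, was at 125, 130.4, 105 and 147 CPM in young CTL mice 1 to 4 and at 56.3, 103, 87.0 and 106 CPM in young CKO mice 1 to 4. The groups overlapped by a single pair, CTL 3 and CKO 4. On the log2 scale CKO differed from CTL by −0.52 (standard error 0.20, adjusted p = 0.556, edgeR), which puts CKO at 69.8% of CTL with a 95% interval of 52.0% to 93.7%.
Dnmt3a, a de novo methyltransferase, was at 44.4, 72.6, 46.2 and 39.7 CPM in the CTL mice and at 30.8, 35.8, 38.1 and 24.3 CPM in the CKO mice. Every CKO mouse lay below every CTL mouse, by a narrow margin between CTL 4 and CKO 3. Dnmt3a differed by −0.65 on the log2 scale (standard error 0.25, adjusted p = 0.545, edgeR), or 63.6% of CTL (95% interval 44.1% to 91.6%), and the two-sided exact permutation test gave p = 0.0286, the smallest that 4 mice against 4 allow (0.190 adjusted over 20 such tests). Lack of overlap in this direction occurred in 2.09% of all genes.
Dnmt3b, the other de novo methyltransferase, was at 64.0, 56.2, 52.0 and 51.1 CPM in CTL and at 39.5, 52.8, 21.8 and 47.8 CPM in CKO mice. CKO 2 lay within the CTL range and CKO 3 far below it. Its log2 fold change of −0.46 (standard error 0.25) had a 95% interval of −0.997 to 0.08. Summed over the 3 methyltransferases, CTL mice had between 203 and 259 CPM and CKO mice between 127 and 191 CPM.

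For the TET genes, whose products oxidize methylcytosine, all 3 intervals in young mice included 0. Tet1 was at 30.3, 48.2, 26.1 and 43.9 CPM in CTL mice and at 15.4, 19.9, 43.8 and 29.6 CPM in CKO mice. The groups overlapped through CKO 3 and CKO 4, and the log2 fold change was −0.44 (95% interval −1.13 to 0.25). Tet2 was at 19.3, 30.0, 23.1 and 28.9 CPM in CTL and at 19.8, 24.1, 46.3 and 20.4 CPM in CKO mice. CKO 1, 2 and 4 lay inside the CTL range and CKO 3 above it. For Tet2 the log2 fold change was 0.13 (95% interval −0.54 to 0.79), so a level in CKO mice between 69.0% and 173% of CTL is compatible with these data. Tet3 was at 21.3, 38.5, 16.7 and 25.5 CPM in CTL and at 16.6, 16.3, 31.4 and 18.8 CPM in CKO mice, with overlap and a log2 fold change of −0.29 (95% interval −0.997 to 0.41).

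Of the chromatin regulators, Ezh2, the catalytic subunit of PRC2 that methylates histone H3, had the smallest p of the members. It was at 152, 164, 170.4 and 164 CPM in CTL mice and at 116, 117, 78.2 and 124 CPM in CKO mice. The CTL mice lay close together and all above the CKO mice. Its log2 fold change was −0.58 (standard error 0.16, adjusted p = 0.305, edgeR), or 67.0% of CTL (95% interval 52.6% to 85.3%), with p = 0.0286 in the two-sided exact permutation test (0.190 adjusted over 20 tests). Asxl1, a cofactor of the histone H2A deubiquitinase BAP1, was at 38.9, 42.1, 28.2 and 22.7 CPM in CTL and at 29.5, 37.3, 29.1 and 29.7 CPM in CKO mice. All CKO mice lay inside the CTL range, and the log2 fold change was −0.07 (95% interval −0.61 to 0.47). Idh1, the cytosolic isocitrate dehydrogenase, was at 103, 107, 97.7 and 87.4 CPM in CTL and at 149.8, 108, 88.3 and 80.5 CPM in CKO mice, a log2 fold change of 0.11 (95% interval −0.30 to 0.53). Idh2, its mitochondrial counterpart, was at 428, 431, 477 and 522 CPM in CTL and at 442, 409, 334 and 476 CPM in CKO mice. Its log2 fold change of −0.16 had a 95% interval of −0.45 to 0.13, the narrowest among the members in young mice.

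**Figure D2:**
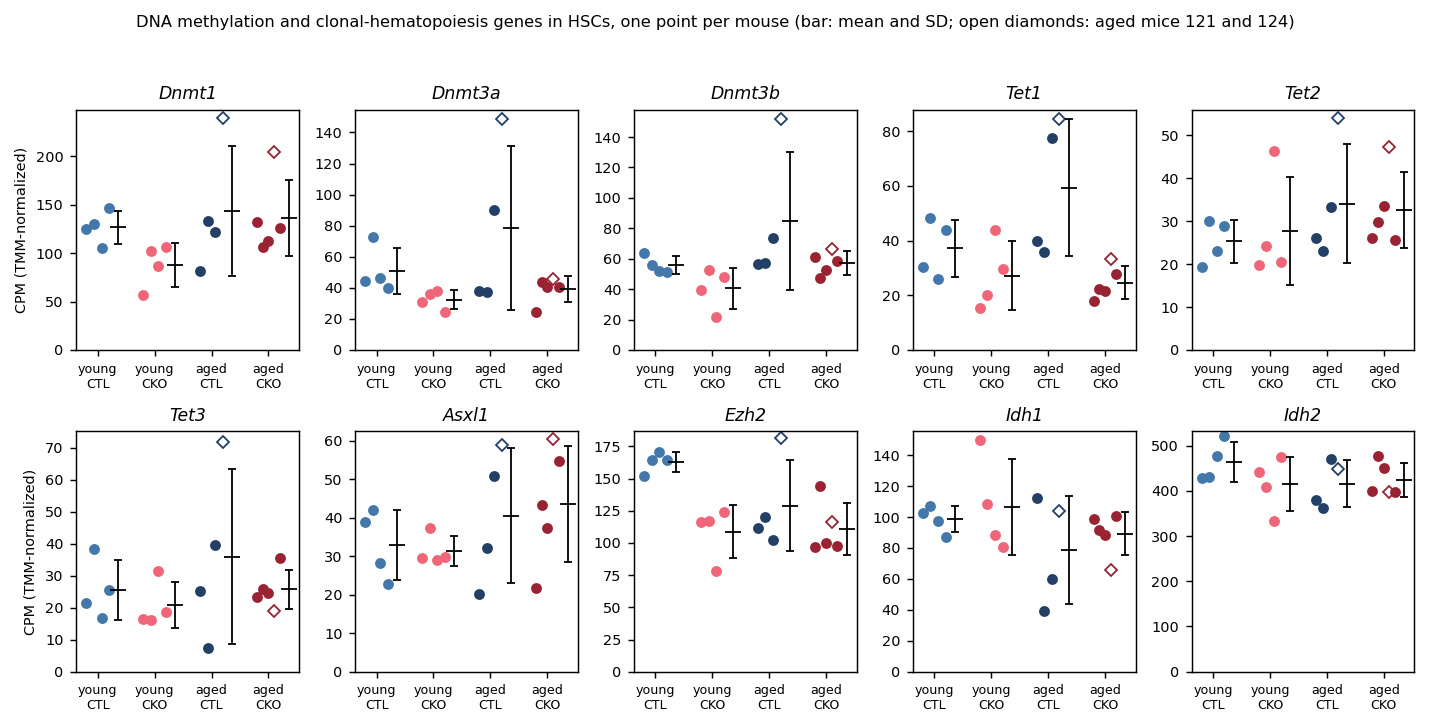
CPM of each member in every mouse by group, with the group mean and SD beside the points; open diamonds are aged mice 121 and 124, whose Ythdf2 goes against their labels. Young CKO mice lie below young CTL mice for Dnmt3a and Ezh2, and aged CKO mice below aged CTL mice for Tet1.

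Young CKO 3 carried much of the spread in its group. Among the 8 young mice it was lowest in Dnmt3b, Ezh2 and Idh2 and highest in Tet2. It also had the lowest summed level of 18 S-phase and mitotic genes, 2633 CPM against 4264 to 4366 CPM in the other CKO mice and 4355 to 5020 CPM in CTL mice, with none of these genes at 0. Of 6 megakaryocyte or platelet markers, all in the table and none at 0 in any mouse, it had the highest sum, 3112 CPM, against 994 to 1955 CPM in the other CKO mice and 536 to 888 CPM in CTL mice. Most of this sum was Pf4, a platelet chemokine, at 297 to 637 CPM in CTL and 745 to 2764 CPM in CKO mice, while the other 5 markers summed to 237 to 294 and 248.7 to 352 CPM, which overlapped. The 4 erythroid markers in the table summed to 26.4 to 58.7 CPM in CTL and 44.9 to 90.7 CPM in CKO mice, which overlapped. The part of all these levels, and of Ly6a and Cd48 that like Pf4 separated the young genotypes, in the results was not tested. Without CKO 3 the log2 fold change was −0.45 for Ezh2, −0.74 for Dnmt3a, −0.51 for Dnmt1 and −0.77 for Tet1. Dnmt3b came to −0.25 and Tet2 turned to −0.24. Leaving out other young mice moved estimates both ways. Tet1 came to −0.25 without CKO 1 and −0.29 without CTL 2, and Dnmt3a to −0.42 without CTL 2. The most negative estimates with any 1 young mouse left out were −0.76 for Dnmt3a, −0.63 for Dnmt1 and −0.65 for Ezh2. Dnmt3a missed an unadjusted p of 0.05 without CTL 2 or CKO 4, and Dnmt1 without CKO 1 or CTL 4. Tet3 ranged from −0.56 to −0.02. The count of 3 members lower at an unadjusted p below 0.05 was 1 in a single fit over all mice, 2 by both tests over libraries, 3 with a covariate for Y-linked reads, and 2 to 4 when each young mouse was left out. Of all genes, 202 of 12352 were lower in the single fit and 360 of 11526 with the covariate. The tests over libraries had 418 and 398 of 10589. With a mouse left out they ranged from 239 of 11746 (CTL 2) to 467 of 11742 (CKO 3).

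In aged HSCs, the same comparison found the largest difference in Tet1. By edgeR's quasi-likelihood test 0 of 10 members were called, against 0.0% of 11961 genes. At an unadjusted p below 0.05, 2 members were lower (Tet1 and Dnmt3a) and 0 higher, against 5.65% of all genes lower. Other tests called members. DESeq2 called Tet1 (adjusted p = 0.0249) and 0.869% of genes. The quasi-likelihood test with libraries as replicates called Tet1 (adjusted p = 0.0325, edgeR) and 1.15% of genes. The likelihood ratio test over libraries called Tet1 and Dnmt3a (adjusted p = 0.00125 and 0.014, edgeR) and 3.73% of genes. Both tests over libraries count the libraries of a mouse as separate animals, which they are not. The log2 fold change was negative in 7 of 10 members, against 50.3% of all genes, with a median of −0.14 against −0.0033 over all genes. Without mice 121 and 124 it was negative in 4 of 10 members, with a median of 0.08, and 0 were called, against 0.333% of genes.

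Tet1, the dioxygenase best known from embryonic stem cells, was at 39.8, 35.9, 77.5 and 84.3 CPM in aged CTL mice 65, 99, 114 and 124. In aged CKO mice 78, 81, 94, 121 and 122 it was at 18.0, 22.4, 21.4, 33.3 and 28.0 CPM. Every CKO mouse lay below every CTL mouse, which held for 1.7% of all genes, and the lowest CTL mouse was 99, which has a single library. For Tet1 the log2 fold change was −1.26 (standard error 0.31, adjusted p = 0.297, edgeR), or 41.7% of CTL (95% interval 26.3% to 66.2%), and the two-sided exact permutation test gave p = 0.0159, the smallest that 4 mice against 5 allow (0.190 adjusted over 20 tests). The difference was nearly as large without mice 121 and 124, −1.19 (standard error 0.31, adjusted p = 0.143, edgeR), and every CKO mouse lay below every CTL mouse, as for 5.45% of all genes (p = 0.0571 by the exact two-sided permutation test, which 3 mice against 4 cannot undercut). Leaving out each aged mouse in turn gave log2 fold changes from −1.45 to −1.06. Without aged CTL 114, whose myeloid and lymphoid markers stood apart, it was −1.12 for Tet1; the part of these markers in the result was not tested.
Tet2 was at 26.0, 23.1, 33.3 and 54.1 CPM in the aged CTL mice and at 26.2, 29.9, 33.7, 47.4 and 25.7 CPM in the aged CKO mice. The highest value of each group belonged to the mouse whose Ythdf2 went against its label. The log2 fold change was −0.06 (95% interval −0.73 to 0.61) and 0.06 (−0.54 to 0.67) without mice 121 and 124. Tet3 was at 25.1, 7.42, 39.5 and 71.9 CPM in aged CTL and at 23.4, 25.7, 24.7, 19.1 and 35.5 CPM in aged CKO mice. The CTL mice enclosed the whole CKO range, and the log2 fold change turned from −0.48 to 0.17 without mice 121 and 124.

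Dnmt3a was at 37.7, 37.1, 90.1 and 148 CPM in aged CTL mice and at 24.5, 43.7, 40.3, 45.5 and 40.7 CPM in aged CKO mice. CTL 114 and CTL 124 lay far above the rest, while CTL 65 and CTL 99 lay within the CKO range. For Dnmt3a the aged difference was −0.998 on the log2 scale (standard error 0.37, adjusted p = 0.407, edgeR), or 50.1% of CTL (95% interval 28.7% to 87.4%). Without mice 121 and 124 it was −0.57 (95% interval −1.30 to 0.16), and without aged CTL 114, −0.93. Dnmt3b was at 56.8, 57.3, 73.7 and 152 CPM in aged CTL and at 61.2, 47.1, 52.3, 66.6 and 58.6 CPM in aged CKO mice, where only CTL 114 and 124 exceeded every CKO mouse. Its log2 fold change of −0.56 came to −0.20 without mice 121 and 124 (95% interval −0.65 to 0.26). Dnmt1 was at 81.4, 133, 122 and 239 CPM in aged CTL and at 132, 107, 112, 204 and 125.7 CPM in aged CKO mice. Mouse 124 was again the highest and mouse 121 next, and the log2 fold change was −0.07 with both and 0.09 (95% interval −0.35 to 0.53) without them. Mouse 124 was the highest of the 9 aged mice in 7 members, namely all 6 methylation enzymes and Ezh2, and mouse 99 the lowest in 4.

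Ezh2 was at 112, 120.4, 103 and 182 CPM in aged CTL mice and at 96.7, 145, 99.6, 116 and 97.6 CPM in aged CKO mice. The groups overlapped, with a log2 fold change of −0.21 (95% interval −0.66 to 0.23), and of −0.03 without mice 121 and 124 (95% interval −0.45 to 0.40). Asxl1 was at 20.1, 32.2, 50.8 and 58.8 CPM in aged CTL and at 21.8, 43.2, 37.3, 60.4 and 54.8 CPM in aged CKO mice, which spanned nearly the same range, with log2 fold changes of 0.11 with and 0.19 without mice 121 and 124. Idh1 was at 112, 39.2, 60.1 and 104 CPM in aged CTL and at 99.0, 91.3, 88.5, 66.04 and 101 CPM in aged CKO mice. Its CTL mice split into a high and a low pair, and the log2 fold change was 0.18 (95% interval −0.41 to 0.77), and 0.41 (−0.20 to 1.02) without mice 121 and 124. Idh2 was at 380.3, 363, 470.1 and 448 CPM in aged CTL and at 399, 476, 449.5, 397 and 398 CPM in aged CKO mice, a log2 fold change of 0.04 (95% interval −0.28 to 0.36), and of 0.09 without mice 121 and 124. Summed megakaryocyte or platelet markers were at 351 to 563 CPM in aged CTL and at 554 to 2016 CPM in aged CKO mice, with mouse 121 the lowest of the latter, and the S-phase and mitotic genes at 2686 to 5128 and 4123 to 5173 CPM. Their part in the aged results was not tested.

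**Figure D3:**
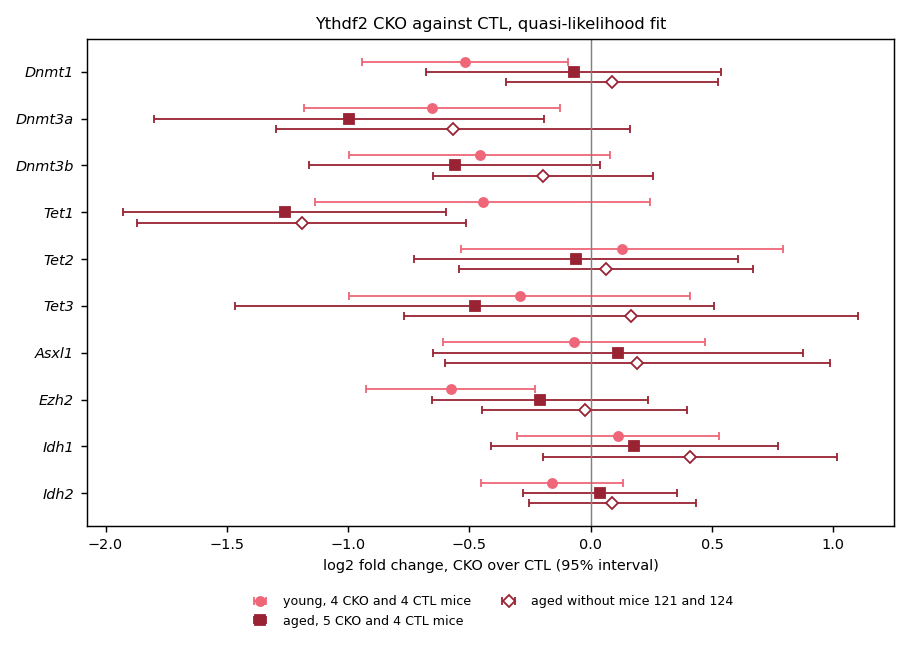
Log2 fold change of CKO over CTL for each member with its 95% interval, in young mice, in aged mice and in aged mice without 121 and 124; 0 means equal levels. The interval of Tet1 in aged mice lies below 0 in both fits, while that of Dnmt3a reaches above 0 without mice 121 and 124.

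At both ages 6 of 10 members had a negative log2 fold change (Dnmt1, Dnmt3a, Dnmt3b, Tet1, Tet3 and Ezh2), against 29.5% of all genes. When mice 121 and 124 were left out they were 4 (Dnmt3a, Dnmt3b, Tet1 and Ezh2), where aged Ezh2 was at 98.2% of CTL (95% interval 73.3% to 132%). The share of all genes was not computed for that set of mice. Whether the genotype difference differed between ages was tested in 1 fit over all 17 mice. By edgeR's quasi-likelihood test 0 of 10 members were called, against 0.0% of 12352 genes, 0 had an unadjusted p below 0.05, and DESeq2 called 0 members and 0.0% of genes. For Tet1 the aged difference minus the young one was −0.82 (95% interval −1.81 to 0.16), for Dnmt3a −0.36 (−1.37 to 0.65) and for Tet2 −0.20 (−1.15 to 0.75). The Tet1 value came to −0.47 with a covariate for Y-linked reads and to −0.50 without young CKO 3. For Ezh2 it was 0.36 (−0.20 to 0.93) and for Dnmt1 0.44 (−0.34 to 1.23). With mice 121 and 124 left out, Tet1 came to −0.74 (95% interval −1.73 to 0.25), Dnmt3a to 0.09 (−0.81 to 0.99) and Tet2 to −0.06 (−0.94 to 0.82). Ezh2 came to 0.56 (0.03 to 1.08) and Dnmt1 to 0.62 (0.0087 to 1.23), and 0 members were called, against 0.121% of genes.

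Aged and young mice of one genotype were then compared. Library names in the labels' descriptions have 1 prefix for all young and another for all aged libraries, so age and what this prefix stands for cannot be told apart. In CTL HSCs 0 of 10 members were called, against 14.8% of 12352 genes, and 1 was higher at an unadjusted p below 0.05 (Dnmt3b), against 15.6% of genes. In CKO HSCs 0 of 10 members were called, against 16.6% of genes, and 1 was higher at an unadjusted p below 0.05 (Dnmt1), against 14.7% of genes. DESeq2 called 0 members in both, against 19.2% of genes in CTL and 20.9% in CKO mice. Without mice 121 and 124 the shares of genes called were 17.6% and 18.1%. The median log2 fold change over all genes was 0.11 in CTL and 0.07 in CKO mice. For the members it was 0.37 in CTL mice, −0.0025 without mice 121 and 124 and 0.13 with the Y-linked covariate. In CKO mice these medians were 0.25, 0.14 and 0.21.

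Dnmt3b was at 55.8 ± 5.89 CPM in young CTL and 84.9 ± 45.1 CPM in aged CTL mice (n = 4 each, SD). The age difference was 0.61 on the log2 scale (adjusted p = 0.162, edgeR) and came to 0.17 without mice 121 and 124. Tet1 had 0.68 (95% interval −0.04 to 1.40) and Dnmt3a 0.63 (−0.10 to 1.37) in CTL mice, which came to 0.46 and 0.12 without both mice. Ezh2, at 163 ± 7.63 CPM in young and 129 ± 35.7 CPM in aged CTL mice, had −0.33 (adjusted p = 0.267, edgeR). Without mice 121 and 124 it was called lower in aged CTL mice, at −0.55 (standard error 0.19, adjusted p = 0.0472, edgeR). In CKO mice Dnmt1 was at 88.1 ± 22.8 CPM (SD, n = 4) when young and 136 ± 39.5 CPM (SD, n = 5) when aged. This gave a log2 fold change of 0.63 (adjusted p = 0.107, edgeR) with all mice and 0.43 (adjusted p = 0.137, edgeR) without 121 and 124. The likelihood ratio test over libraries called it (adjusted p = 0.0187, edgeR) and 26.5% of genes, as did libraries as replicates with 24.1% of genes. Both count the libraries of a mouse as separate animals. Tet1 in CKO mice had −0.14 (95% interval −0.83 to 0.54; −0.28 without mice 121 and 124). Tet2 had 0.44 (−0.25 to 1.12) in CTL and 0.24 (−0.42 to 0.89) in CKO mice, and 0.12 and 0.06 without both mice.

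**Figure D4:**
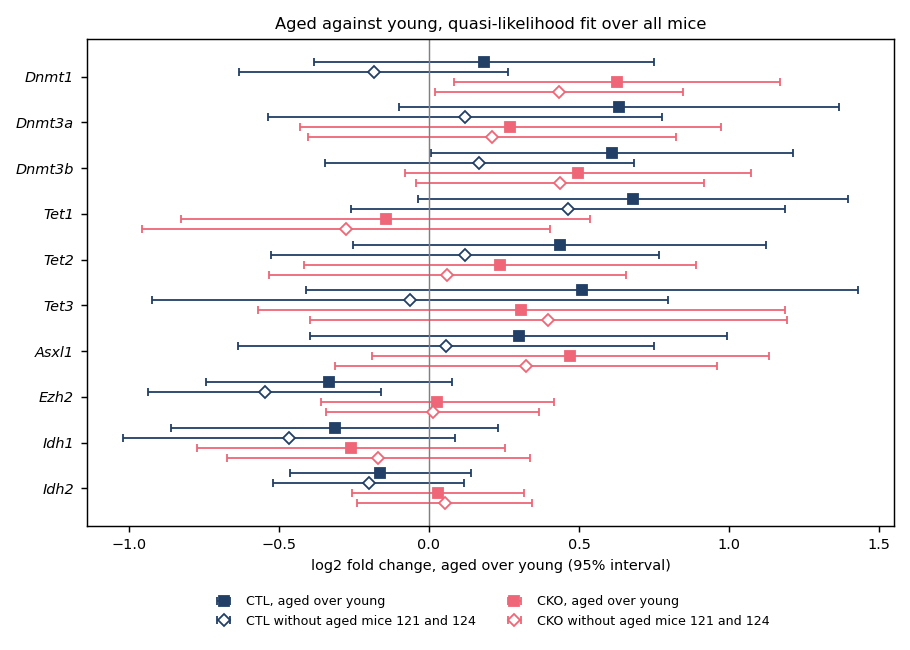
Log2 fold change of aged over young mice for each member within each genotype, with its 95% interval, with all mice and without aged mice 121 and 124. Most intervals cross 0, and in CTL mice the interval of Ezh2 lies below 0 without both mice.

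The spread between libraries of the same mouse sets the precision of these levels. In 160 pairs (10 members in the 16 mice with 2 libraries), 21 pairs (13.1%) differed by more than 2-fold. The median absolute log2 ratio was smallest for Idh2, at 0.18, and largest for Tet3, at 0.57, and genes of like level had 0.24 and 0.57. Dnmt3a in young CKO 3, the CKO mouse nearest to the CTL range, was at 17.9 CPM in library A and 79.4 CPM in library B. Tet3 in the same mouse was at 42.5 and 7.06 CPM, and Tet2 in aged CTL 124 at 97.3 and 18.1 CPM. For Dnmt3a, the median ratio was 0.28, against 0.43 for genes of like level.

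**Figure D5:**
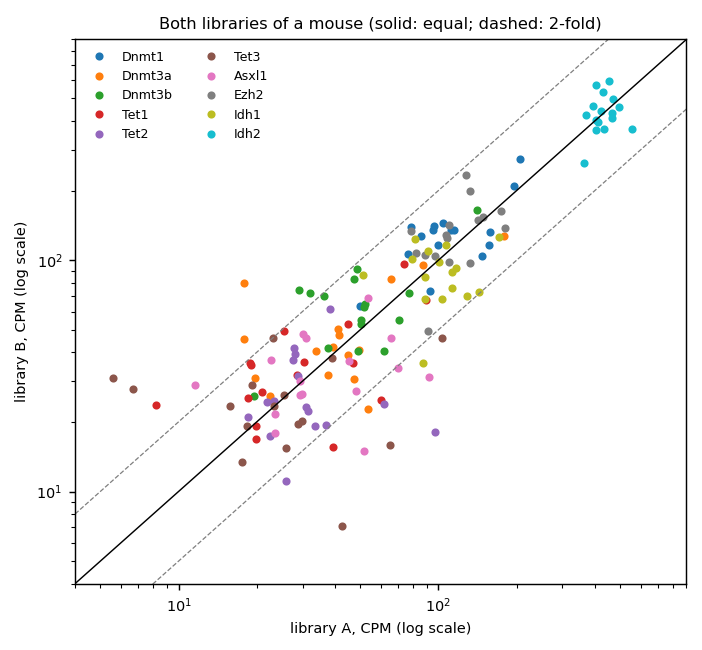
CPM of each member in library A against library B of the same mouse, both on log scales; each point is 1 member in 1 of 16 mice, and dashed lines mark a 2-fold difference. Idh2 pairs lie near the line of equality, and the points beyond the dashed lines are mostly of members at lower CPM.

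Lists of genes that work with the members were examined by the same fits. In both genotype comparisons, edgeR's quasi-likelihood test called 0 genes of every list, and DESeq2 also called 0. The counts of list genes at an unadjusted p below 0.05 that follow stand against 4.26% of all genes higher and 2.8% lower in young mice, and 4.45% higher and 5.65% lower in aged mice (5.53% and 6.05% without mice 121 and 124). Of 15 DNA methylation partners, readers and repair genes in the table, 0 were higher and 1 lower in young CKO mice at an unadjusted p below 0.05, namely Hells, a chromatin remodeler needed for DNA methylation (118.9 ± 24.9 CPM in CTL and 83.4 ± 17.0 CPM in CKO mice, SD, n = 4 each). The next by p in young mice were the reader Mbd2 and the glycosylase Tdg, both with negative fold changes. In aged mice Mbd3 had a log2 fold change of 0.55 and Usp7, a deubiquitinase that binds DNMT1, of −0.72, both at an unadjusted p below 0.05. Both were called by the likelihood ratio test over libraries, which called 3.73% of genes and counts the libraries of a mouse as separate animals. Without mice 121 and 124 they had 0.51 and −0.60.
Of 10 PRC2 subunits and accessory proteins, 0 were higher and 1 lower in young mice, Rbbp7 (log2 fold change −0.26). Ezh1, the paralog of Ezh2, had 0.54 (95% interval −0.05 to 1.14), and Eed −0.22. In aged mice 1 was higher, Rbbp4 (0.66), and 0 lower. Leaving out mice 121 and 124, 2 were higher, Rbbp4 (0.53) and Jarid2, and 0 lower. Suz12 had −0.56 and Eed −0.33 there, and −0.25 and −0.33 without both mice. Of 9 Asxl paralogs and BAP1 complex genes, 0 passed in either direction in young mice, where Bap1 had 0.42, Hcfc1 −0.26 and Mbd5 −0.43. In aged mice 0 were higher and 3 lower (Ogt −0.45, Hcfc1 −0.78 and Kdm1b −0.88). The likelihood ratio test over libraries called Ogt and Hcfc1, and 3.73% of all genes. Left without mice 121 and 124, 2 were lower (Ogt −0.45 and Kdm1b −0.94), and Hcfc1 had −0.35.
Of 18 TCA cycle and alpha-ketoglutarate genes, 0 passed in either direction in young mice, where Dlst had −0.67, Cs −0.30 and Got1 −0.26. In aged mice 2 were higher (Got1, 0.78, and Idh3a, 0.43) and 0 lower, and Aco1 had 0.59. These came to 0.65, 0.33 and 0.41 without mice 121 and 124, where Idh3a no longer passed, 1 gene was higher (Got1) and 1 lower (D2hgdh). Of 33 other clonal-hematopoiesis driver genes, 0 passed in either direction in young mice, where Cux1 had 0.28, Chek2 −0.23 and Bcorl1, at under 8 CPM in every young mouse, −1.16. In aged mice 0 were higher and 2 lower, Cbl (−0.97) and the splicing gene Zrsr2 (−0.72), and Gnb1 had 0.54. Neither Cbl (−0.68) nor Zrsr2 (−0.53) had an unadjusted p below 0.05 without mice 121 and 124, and Gnb1 had 0.29. Of 18 S-phase and mitotic genes, all had a negative log2 fold change in young mice, with a median of −0.21 against −0.00093 over all genes. Of these, 4 were lower at an unadjusted p below 0.05, among them Pcna (−0.45), Top2a (−0.59) and Cdk1 (−0.57). Without young CKO 3, 12 of 18 were negative with a median of −0.07. In aged mice 15 of 18 were positive, with a median of 0.24, and 1 was higher at an unadjusted p below 0.05, Tk1 (0.62), while Rrm1 had 0.43 and Top2a −0.54. These values were 0.72, 0.37 and −0.15 without mice 121 and 124, where 17 of 18 genes were positive and 3 were higher (Tk1, Mcm2 and Mcm5).
With age, over all genes edgeR's quasi-likelihood test called 6.7% higher and 8.07% lower in CTL mice, and 7.21% higher and 9.34% lower in CKO mice. Of the 10 PRC2 genes 0 rose and 3 fell in aged CTL mice (Eed, Rbbp4 and Rbbp7), and 0 rose and 2 fell in aged CKO mice (Eed and Mtf2). Of the 9 BAP1 complex genes 2 rose in aged CTL mice (Bap1 and Hcfc1) and 1 in aged CKO mice (Bap1), and 0 fell in either. Of the 18 TCA cycle genes 2 rose and 4 fell in CTL mice, and 2 rose and 2 fell in CKO mice. Of the 33 other driver genes 3 rose and 3 fell in CTL mice, and 0 rose and 3 fell in CKO mice (Atm, Brcc3 and U2af1). Of the 18 S-phase and mitotic genes 0 rose and 3 fell in CTL mice (Cdk1, Pcna and Tyms), and 1 rose and 1 fell in CKO mice.

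The genes whose levels followed Dnmt3a and Tet2 most closely over the 17 mice were sought on log2 CPM centred on the group means, as a description. For Dnmt3a they were Setd1b (Pearson r = 0.93, Spearman rho = 0.90), Mycbp2 (r = 0.92, rho = 0.91) and Trim56 (r = 0.90, rho = 0.81). Without aged CTL 124 and aged CTL 99, the mice farthest from the median, r was 0.87, 0.91 and 0.80. Among the members Asxl1 was the most like Dnmt3a, at r = 0.81 (0.85 without both mice), and Idh1 and Idh2 the least, both at 0.23 (−0.39 and −0.02 without both mice). For Tet2 they were Cntrl (r = 0.91, rho = 0.88), Sec11c (r = 0.89, rho = 0.90) and Tnks (r = 0.89, rho = 0.69). Without young CKO 3 and aged CTL 124, r was 0.86, 0.81 and 0.78. Tet1 was the member most like Tet2, at r = 0.80 (0.69 without both mice), and Dnmt3a had r = 0.70 with it. The values of 1 mouse share its libraries and depth.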

How the data were processed

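The labels and the study's methods describe SMART-Seq2 libraries of 100 sorted HSCs, 2 per mouse, aligned with HISAT2 to mm10 and counted per gene with Rsubread; the deposited values are raw counts, which the authors did not normalize, in 13108 gene rows. Of 34 libraries, 33 were used: library B of aged CTL 99 (187034 counts) was left out. Library totals were 1859784 to 7784627 counts (median 3038180). Counts of a mouse's libraries were added and tested with edgeR 4.0.16 in R 4.3.3 (TMM, filterByExpr with a minimum count of 10 and total of 15, quasi-likelihood test, Benjamini-Hochberg adjustment at 0.05), with 95% intervals from the fit. By the study's methods, control mice were littermates. The labels do not say which mice shared a litter, or that mice came from separate litters. Young and aged genotype comparisons used their own mice, and age comparisons 1 fit over all 17. DESeq2 1.42.0, a likelihood ratio test over libraries, other filters and scalings, a Y-linked covariate, a replicate block and leaving out mice were alternatives. Tests over libraries took no account of which mouse a library came from. Single values were compared by exact permutation tests (SciPy 1.17.1). Levels per kb used GENCODE vM21 exon unions in place of the RefSeq unions planned. Fits were tested on simulated data. The members are the fixed list of 10; other genes are the first 3 by p in each list and the 3 most like Dnmt3a and Tet2. Members and lists were chosen with earlier results of these data known. The values of 2 list genes, and with them the age counts of the methylation partners, are not reported here.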

Additional observations from a re-analysis of the deposited data

Results flagged for a closer look

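In 7 of 44 groups of 4 or 5 mice (the 10 members and Ythdf2 in 4 groups each), 1 mouse stood apart from the others by Dixon's criterion, where chance gives about 2.2. Aged CKO 121 had the highest Dnmt1 of its group, 204 CPM against 132 CPM in the next mouse, and also the highest Ythdf2, 188 CPM against 87.7 CPM. Aged CKO 78 had the lowest Dnmt3a of its group, 24.5 CPM against 40.3 CPM. Young CKO 3 had the highest Tet2 of its group, 46.3 CPM against 24.1 CPM, the highest Tet3, 31.4 CPM against 18.8 CPM, and the lowest Ezh2, 78.2 CPM against 116 CPM. Young CKO 2 had the highest Asxl1 of its group, 37.3 CPM against 29.7 CPM.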

How the results depend on the processing

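In young mice 0 members were called under every alternative run. Among aged mice DESeq2 called 1 member (Tet1), the likelihood ratio test over libraries 2 (Tet1 and Dnmt3a) and libraries as replicates 1 (Tet1). Without mice 121 and 124, 1 member was called in the age comparison of CTL mice (Ezh2), and leaving out each mouse in turn gave 0 to 1 there (1 without aged CTL 124). Genes called there were 17.6% of all without both mice, and 815 higher and 1194 lower of 12462 without aged CTL 124. In CKO mice the likelihood ratio test and libraries as replicates each called 1 (Dnmt1), and leaving out each mouse gave 0 to 1 (1 without aged CTL 124). The tests over libraries called 26.5% and 24.1% of all genes. The fit without aged CTL 124 called 1179 genes higher and 1476 lower of 12462. Over all genes, the young comparison called 20 with the main test, 77 with DESeq2, 90 with the likelihood ratio test, 47 with libraries as replicates, 9 with the Y-linked covariate and 1 in a single fit, and the aged one 0, 104, 420 and 130 with the first 4, and 40 without mice 121 and 124. Leaving out young CTL 1 or young CTL 2 took the 20 calls to 0, and leaving out another young mouse gave 6 to 18. Without aged CKO 121 the aged comparison called 12 genes higher and 4 lower. With a replicate block in young mice 0 members and 14 genes were called; the numbers do not pair the mice (r between −0.044 and 0.049), and aged mice share no numbers.

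Log2 fold changes that turned sign were these. With the Y-linked covariate they were Tet2 (−0.10) and Asxl1 (0.10) in young mice, Asxl1 (−0.0046) in aged mice, and Tet2 (0.045) and Tet3 (0.18) in age by genotype. Without mice 121 and 124 they were Dnmt1 (0.089), Tet2 (0.064) and Tet3 (0.17) in aged mice, Dnmt3a (0.089), Dnmt3b (0.27) and Tet3 (0.46) in age by genotype, and Dnmt1 (−0.18) and Tet3 (−0.063) in the age comparison of CTL mice. Over libraries Asxl1 turned in aged mice (−0.022 by the likelihood ratio test, −0.021 as replicates) and in age by genotype (−0.012 by both). The cause was not tested. Leaving out each mouse in turn, the ranges that crossed 0 in young mice were −0.21 to 0.078 (Asxl1), −0.095 to 0.22 (Idh1) and −0.24 to 0.26 (Tet2). In aged mice they were −0.13 to 0.33 (Asxl1), −0.28 to 0.27 (Dnmt1), −0.049 to 0.39 (Idh1), −0.031 to 0.095 (Idh2), −0.23 to 0.23 (Tet2) and −0.82 to 0.076 (Tet3). In age by genotype they were −0.066 to 0.41 (Asxl1), −0.60 to 0.15 (Dnmt3a), −0.33 to 0.33 (Dnmt3b), −0.16 to 0.26 (Idh1), −0.38 to 0.16 (Tet2) and −0.53 to 0.38 (Tet3). With age they were −0.20 to 0.38 (Dnmt1) and −0.079 to 0.83 (Tet3) in CTL mice, and −0.11 to 0.097 (Ezh2), −0.072 to 0.10 (Idh2) and −0.34 to 0.17 (Tet1) in CKO mice. Members at low counts, such as Tet3 with 18 counts in aged CTL 99, are the least precise.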
